A study of Homo sapiens with 8 samples.

Results

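The regions described here are the sites of HA-tagged RUNX1 around the alpha and beta globin gene clusters of HEL cells. They were taken by position, as every called peak that overlaps a window from 70 kb before to 70 kb after the listed genes of a cluster (HBZ, HBA2 and HBA1, and HBB, HBD, HBG1, HBG2 and HBE1). The clusters were chosen with earlier results of these data known. The windows are chr16:82644-247522 (alpha, 165 kb) and chr11:5155464-5339945 (beta, 184 kb) on hg38. They hold 41 of the 89672 peaks of 6 peak lists, which merge into 19 of 33478 regions, 14 at the alpha and 5 at the beta cluster.

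CUT&RUN, in which an antibody tethers a nuclease that cuts out the DNA around its target, was run with an anti-HA antibody on HEL cells, a human erythroleukemia line. Transduced HEL lines kept under puromycin carried HA-tagged RUNX1-4D (4D), HA-tagged RUNX1-4A (4A), HA-tagged wild-type RUNX1 (WT) or an empty vector, with 2 biological replicates each. The names 4D and 4A usually denote aspartate in place of phosphorylated residues, which mimics phosphorylation, and alanine, which blocks it. All of these cells also have their own RUNX1, which carries no HA tag and was not measured. The 2 empty vector libraries served as background for peak calling and have no list of their own here. A peak list measures no RNA, so neither the erythroid state of the cells nor their globin output could be checked. The depth of each library is unknown, and a region missing from a list is one that was not called, which differs from one shown to be unbound.

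Hemoglobin joins alpha-like chains, made from the cluster on chromosome 16, to beta-like chains, made from the cluster on chromosome 11. Within each cluster the embryonic gene (HBZ or HBE1) comes first, fetal and adult genes follow, and a set of distant enhancers lies upstream of the embryonic gene. At the beta cluster these enhancers form the locus control region, whose sites are numbered HS1, HS2, HS3 and on from HBE1 outward. At the alpha cluster they lie mostly inside introns of the neighbouring gene NPRL3. HEL cells are known for making embryonic and fetal rather than adult beta-like chains. RUNX1 is a DNA-binding factor of blood cells that promotes megakaryocytic differentiation, and the title of the series asks about its phosphorylation in the choice between megakaryocytic and erythroid fate.

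Of the 8 listed genes, HBD alone had a promoter sequence in the RefSeq table used (GRCh38.p14, 250 bases before to 50 after the gene start). It is shown because it holds RUNX letters and no library called a peak there. The promoters of LUC7L and FAM234A, both beyond the alpha genes, are shown because called regions overlap them. Each is printed 5′ to 3′ on the strand of its gene, with matches to TGTGGT or TGCGGT on either strand in capitals. The positions are chr11:5234434-5234733 (minus strand, HBD), chr16:229400-229699 (minus strand, LUC7L) and chr16:234571-234870 (plus strand, FAM234A).
HBD: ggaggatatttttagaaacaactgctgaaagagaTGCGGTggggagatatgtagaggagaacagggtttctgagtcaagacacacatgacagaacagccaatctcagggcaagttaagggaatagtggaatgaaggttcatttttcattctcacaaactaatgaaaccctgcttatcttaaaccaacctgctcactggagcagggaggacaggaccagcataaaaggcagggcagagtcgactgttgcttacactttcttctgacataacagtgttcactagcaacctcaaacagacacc
LUC7L: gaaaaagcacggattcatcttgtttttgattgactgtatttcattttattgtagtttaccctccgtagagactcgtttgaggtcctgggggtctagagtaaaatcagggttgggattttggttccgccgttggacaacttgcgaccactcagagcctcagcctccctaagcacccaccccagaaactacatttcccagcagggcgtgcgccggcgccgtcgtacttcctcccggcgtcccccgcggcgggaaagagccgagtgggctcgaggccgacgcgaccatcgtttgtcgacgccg
FAM234A: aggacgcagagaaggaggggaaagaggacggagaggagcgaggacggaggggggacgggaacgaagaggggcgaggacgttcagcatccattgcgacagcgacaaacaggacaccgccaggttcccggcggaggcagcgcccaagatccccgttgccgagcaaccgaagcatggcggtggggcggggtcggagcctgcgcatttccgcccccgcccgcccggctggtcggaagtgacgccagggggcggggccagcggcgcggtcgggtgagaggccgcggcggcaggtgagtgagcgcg

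The HBD promoter held 1 RUNX match, TGCGGT, starting 216 bases before the gene start. It also held TGAGTCA, the letters bound by AP-1 and NF-E2, 180 bases before the start, and TTATCT, the GATA letters AGATAA read on the other strand, 78 bases before it. The LUC7L and FAM234A promoters held no match to the RUNX letters, to AGATAA or TGATAA, to TGACTCA or TGAGTCA, or to CACACCC of KLF1. Of 35116 RefSeq promoter windows of the same length, 19.6% held TGTGGT or TGCGGT on either strand, 16.3% the GATA letters, 4.95% the AP-1 letters and 7.56% CACACCC. The 3 libraries of replicate 2 called a region over the LUC7L promoter window, and all 6 called one over the FAM234A window. Regions called in all 6 overlapped 7.90% of 22199 promoter windows of protein-coding genes, and regions of any library 37.1%. The summits of these peaks lay mostly beyond the printed bases, inside the genes.

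The alpha window held 1 region called in every library, over the start of FAM234A, a gene downstream of the alpha genes. This share, 1 of 14, stands beside 9.84% of all regions called in all 6 libraries. The FAM234A region (chr16:234527-235585) had −log10 q of 3.56 and 46.9 in the 4D replicates, 5.55 and 30.7 in the 4A replicates, and 15.6 and 55.4 in the WT replicates. It was weak in the replicate 1 lists of 4D and 4A, at percentiles 17.1 and 29.3 of all peaks of the list by −log10 q, against 66.3 in WT replicate 1. In the replicate 2 lists its percentiles were 91.1 (4D), 83 (4A) and 93 (WT). Such ranks come from lists of unequal length, so they cannot show whether the lines differ. Its fold enrichment over background, the authors' linear ratio, was 5.28 and 16.6 in 4D, 6.03 and 9.51 in 4A, and 11 and 20.8 in WT. In each line the replicate 2 value was above the replicate 1 value. By fold enrichment the 4D range overlaps those of 4A and WT, while both 4A values lie below both WT values, and WT is highest within each replicate number. This order was not tested, and 2 libraries a line cannot test a single region. With a −log10 q of at least 5 the 4D replicate 1 call was lost. The summits fell from 10 bp before to 254 bp inside the gene start. This spread of 264 bp is above the median of 107 bp over the 3295 regions called in all 6 lists.

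Inside the alpha cluster itself, which spans 24.9 kb from HBZ to HBA1, a single region was called, at the start of HBZ, the embryonic alpha-like chain. It was called in all 3 replicate 2 lists and in no replicate 1 list. Its −log10 q was 33.7 in 4D, 19.3 in 4A and 34.7 in WT, with fold enrichments of 14.5, 9.43 and 15.9. The 3 summits lay 55 (4D), 70 (4A) and 58 bp (WT) inside the end of the gene from which HBZ is transcribed, a spread of 15 bp. The median spread was 63 bp over the 7478 regions called in the same 3 lists alone. Among the alpha regions of the replicate 2 lists, HBZ ranked next to FAM234A in 4D and WT, at percentile 85.4 in each. In 4A it stood at percentile 71.4, below a region in NPRL3.

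HBA2 and HBA1, the fetal and adult alpha chain genes, were overlapped by no region. The nearest was called in 4D replicate 2 alone (chr16:178015-178200), 0.493 kb beyond HBA1, with −log10 q of 2.43, at percentile 6.59 of its list. HBA1 and HBA2 are near-identical copies, as are HBG1 and HBG2. No source used here says how reads that match both copies were handled, so unbound DNA and reads discarded there cannot be told apart. HBQ1, the theta chain gene, was overlapped at its far end in the 3 replicate 2 lists (chr16:180984-181446), with −log10 q of 4.01 in 4D, 8.34 in 4A and 9.23 in WT. Its summits spread over 207 bp, from 139 bp beyond the gene end (4D) to 68 bp inside it (WT). The median was 63 bp over regions called in the same 3 lists alone. HBM, the mu chain gene, had no region nearer than 11.3 kb.

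Upstream of HBZ lay 8 of the 14 alpha regions, and 5 of these were in or across NPRL3, a subunit of a complex that restrains mTORC1 signalling. The regulatory site known as the main alpha enhancer, MCS-R2, lies within NPRL3 about as far from HBZ as a peak of 4D replicate 2 (chr16:113477-113690), whose summit was 39.1 kb upstream of the HBZ start. That peak had −log10 q of 7.29, fold enrichment of 3.76 and percentile 37.3 in its list. No other list called it. A peak of WT replicate 2 alone lay 23.1 kb upstream (chr16:129280-129721, −log10 q of 5.85). Between NPRL3 and HBZ, 8.9 kb upstream of HBZ, a region was called in the 3 replicate 2 lists (chr16:143391-143796), with −log10 q of 4.51 in 4D, 3.88 in 4A and 12.9 in WT. Its summits spread over 62 bp, beside the median of 63 bp for regions called in those lists alone.

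The far upstream end of the window held neighbouring regions at the 3′ ends of MPG, a DNA repair glycosylase, and NPRL3. At chr16:84805-85495 the −log10 q was 9.89 in 4D replicate 2, 13.9 in 4A replicate 2 and 9.34 in WT replicate 2. At chr16:85896-86389 it was 7.26 (4D), 21.2 (4A) and 7.68 (WT) in the same lists. On the other side of the cluster, the region at the start of LUC7L, a splicing factor gene (chr16:229115-229512), had −log10 q of 10.9 in 4D, 16.5 in 4A and 15.6 in WT, again in replicate 2 alone. Summits spread over 68 bp (chr16:84805-85495), 22 bp (chr16:85896-86389) and 132 bp (LUC7L). The median was 63 bp over regions called in the same lists alone. A further region in NPRL3 (chr16:94889-95119) was called in 4D replicate 2 and WT replicate 2, with −log10 q of 2.57 and 5.40. Single peaks in MPG were called in 4D replicate 2 (chr16:82289-83048, −log10 q of 16.2) and WT replicate 2 (chr16:83904-84099, 10.4). The first crosses the window's edge, and its summit lies outside. Beyond FAM234A's start, 4A replicate 2 alone called a peak inside that gene (chr16:242155-242300, −log10 q of 4.59).

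**Figure D1:**
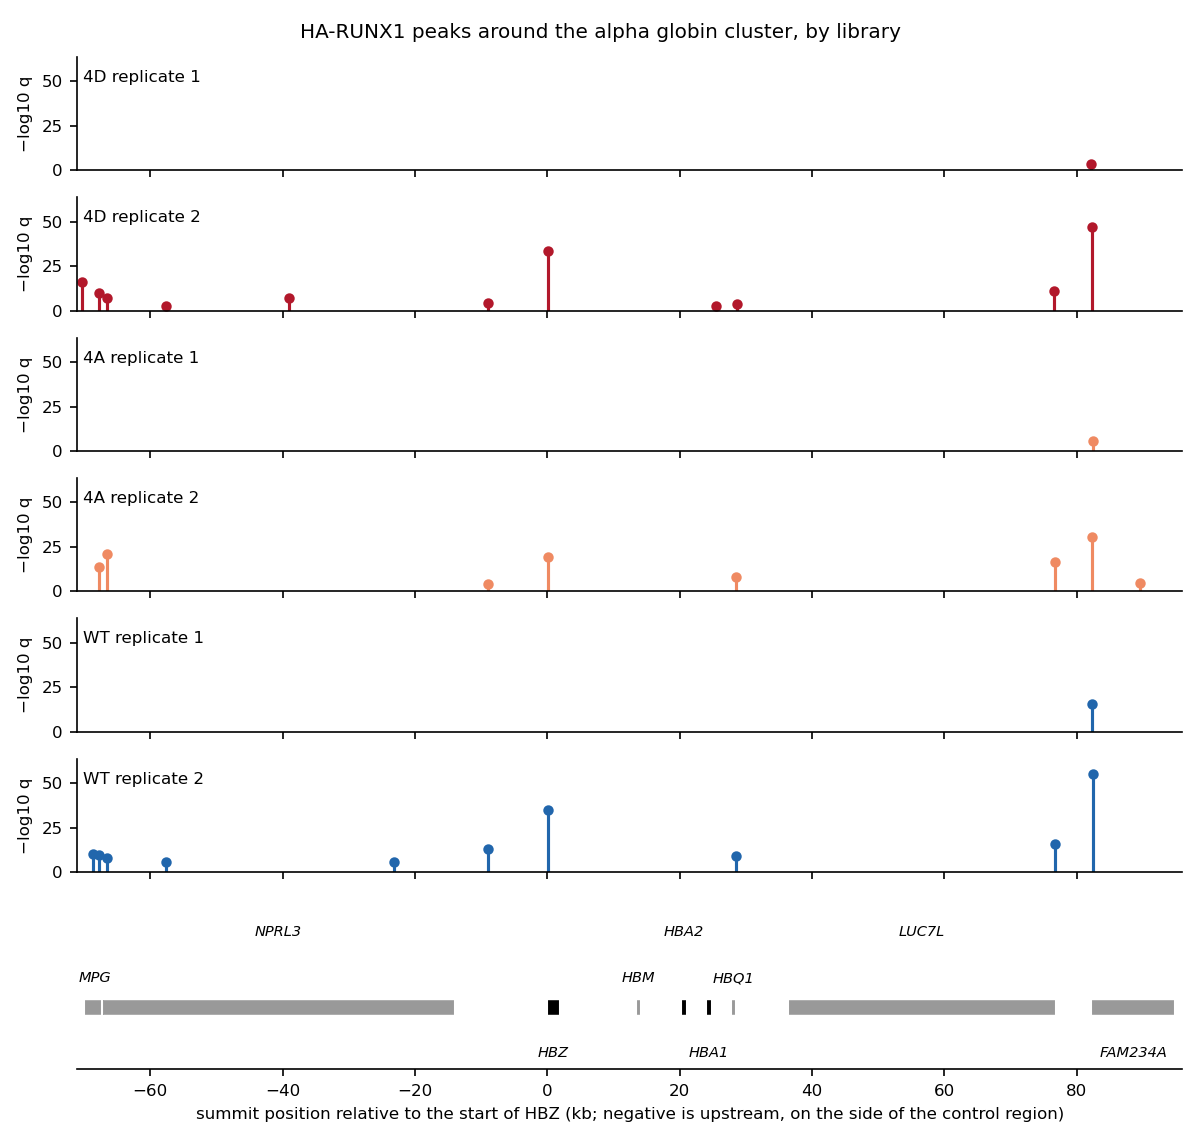
Peaks in the alpha window by library, with 4D on top and WT at the bottom: each stem is a peak, at its summit's distance from the HBZ start in kb, with its −log10 q as height. Black bars are listed globin genes and grey bars neighbours, and the replicate 1 lists each show a single stem, at FAM234A.

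Just outside the alpha window lay a region over RHBDF1 and MPG (chr16:75620-78655), 3.99 kb from its edge and called in all 6 lists. Its −log10 q was 14.5 and 60 in 4D, 35.6 and 129 in 4A, and 36.4 and 111 in WT, above every alpha region of the window in each list. On the other side, a region in FAM234A (chr16:252814-253334) lay 5.29 kb outside and was called in the replicate 2 lists.

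At the beta cluster the binding that recurred lay in the upstream control region, not at a gene. The region chr11:5284355-5285019 was called in 5 of the 6 lists, all but 4A replicate 1, with summits near 14.8 kb upstream of the HBE1 start. That is the usual place of HS3, although the annotation used names no such site. Its −log10 q was 4.75 and 13 in the 4D replicates, 24.9 in 4A replicate 2, and 6.49 and 13.9 in the WT replicates. The fold enrichments were 5.91 and 7.13 in 4D, 9.23 in 4A replicate 2, and 6.70 and 7.79 in WT. Among the replicate 2 lists the 4A value was highest, by percentile too (58.8 in 4D, 78.3 in 4A and 60.3 in WT), while the other 4A list did not call it. Both replicates of each other line called it. With a −log10 q of at least 5 the 4D replicate 1 call was lost, and with all lists at one length only 4D replicate 1, 4A replicate 2 and WT replicate 1 called it, so no line called it in both replicates.

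The 5 summits of this region fell within 37 bp, from 5284731 (WT replicate 1) to 5284768 (4A replicate 2), with 5284753 and 5284761 in the 4D replicates and 5284741 in WT replicate 2. The median spread was 98.5 bp over 1944 regions called in exactly 5 lists. Missing from 4A replicate 1 alone is a common pattern. Of those 1944 regions 722 (37.1%) lacked a call there, 932 (47.9%) in 4D replicate 1 and 257 (13.2%) in WT replicate 1. The nearest peak to HBE1 in 4A replicate 1 was 457 kb away.

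Closer to HBE1 in the control region, 2 weak regions were each called in 1 list. The summit of a 4D replicate 2 peak (chr11:5275697-5275853) lay 5.9 kb upstream of the HBE1 start, where HS1 is usually placed, with −log10 q of 2.41 and percentile 6.32. The summit of a 4A replicate 2 peak (chr11:5280634-5280849) lay 10.8 kb upstream, where HS2 is usually placed, with −log10 q of 4.28 and percentile 21.3. WT called neither.

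Of the beta-like genes only HBB, the adult beta chain, was overlapped by a region, in WT replicate 2 (chr11:5225605-5225747), with −log10 q of 7.14 and percentile 36.1. This gene is read on the minus strand, and the summit lay 179 bp inside its 3′ end. In 4A replicate 2 a peak lay 0.399 kb beyond the same end (chr11:5224636-5225065), with −log10 q of 3.66 and its summit 617 bp from the gene. An enhancer is known just 3′ of HBB. These are separate regions, and each rests on 1 list. HBE1 (nearest region 5.75 kb away), HBG2 (20.9 kb), HBG1 (22.5 kb) and HBD (7.09 kb) were overlapped by none. Over both clusters, 2 of the 8 listed genes (HBZ and HBB) were overlapped in at least 1 list, against 53.8% of protein-coding genes. The fetal genes HBG2 and HBG1, which encode the gamma chains, thus had no region within 10 kb in any list.

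**Figure D2:**
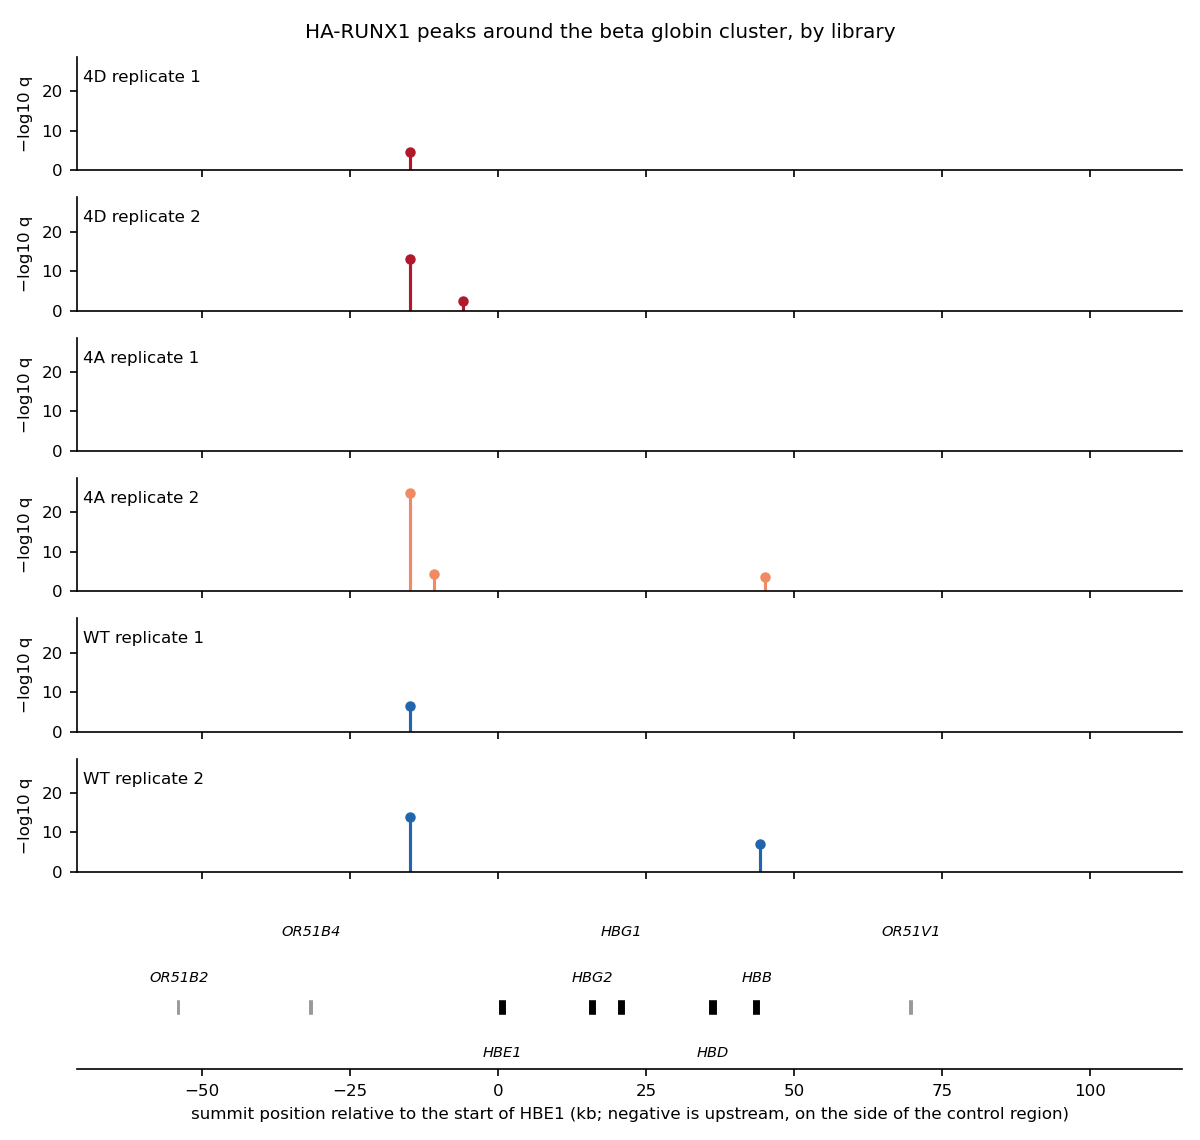
Peaks in the beta window by library, drawn as for the alpha window but with distance in kb from the HBE1 start, so that the control region lies on the left. The stem 14.8 kb upstream recurs in 5 lists, and 4A replicate 1 has none.

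Just outside the beta window, a region inside the olfactory receptor gene OR52A1 (chr11:5151514-5152288) lay 3.18 kb from the edge and was likewise called in all lists but 4A replicate 1. Its −log10 q was 9.60 and 8.87 in 4D, 43.3 in 4A replicate 2, and 11.9 and 12.0 in WT. In OR51B5, 3.2 kb beyond the other edge, WT replicate 2 alone called a peak (chr11:5343144-5343324, −log10 q of 2.82). No region was called over OR51V1, OR51B4 or OR51B2, the olfactory receptor genes inside the window.

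Most of these regions rest on few lists. Of the 19, 10 were called in 1 list (52.6%, against 34.5% of all regions), and 6 in the replicate 2 lists of all lines and no other (22.3% of all regions). The single calls came from the longer replicate 2 lists, with 4 in 4D, 3 in 4A and 3 in WT, against 6.92%, 12.6% and 13.6% of all regions called in that list alone. Their percentile ranks ran from 6.32 to 66.3 with a median of 26.3, against a median of 58.2 for the replicate 2 peaks of the 9 shared regions. All 3 replicate 2 lists called 8 of the 19 (45.6% of all regions), and both replicates of a line called 2 in 4D, 1 in 4A and 2 in WT (14.8%, 17.0% and 19.1% of all regions). A region in any replicate 1 list was found at 2 of the 19 places, FAM234A and the control region, against 27.4% of all regions.

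No difference between the lines was detected in the number of peaks at either cluster. The alpha window held 1 and 11 peaks in the 4D replicates, 1 and 8 in 4A, and 1 and 10 in WT. Their means were 6 ± 7.07 in 4D, 4.5 ± 4.95 in 4A and 5.5 ± 6.36 in WT (SD, n = 2). The beta window held 1 and 2 peaks in 4D, 0 and 3 in 4A, and 1 and 2 in WT, with a mean of 1.5 in every line and SDs of 0.707, 2.12 and 0.707. The spread between replicates exceeded every difference between lines. In the alpha window the differences of the means were 0.5 (4D minus WT), −1 (4A minus WT) and 1.5 peaks (4D minus 4A). Exact two-sided permutation tests gave p = 1 for all 6 comparisons, adjusted or not, where 2 libraries against 2 cannot go below p = 0.333. In the alpha window this outcome was fixed, because every line had 1 peak in replicate 1 and more in replicate 2. At the beta cluster every difference of the means was 0. The alpha tests therefore decide nothing about the lines, and the beta tests rest on very few peaks. No region of either window was called in both replicates of one line and in neither of another, beside 0.114% (4D not WT), 0.472% (WT not 4D), 0.206% (4A not WT) and 0.269% (WT not 4A) of all regions. With shares this small, finding none among so few regions is near the background. The share for 4D against 4A was not counted.

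**Figure D3:**
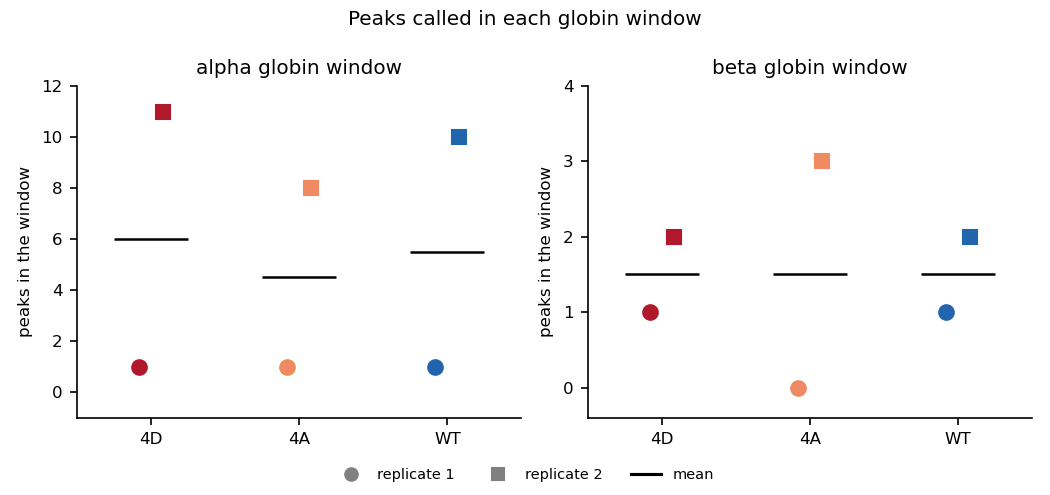
Number of peaks in each window, with a point per library (circles replicate 1, squares replicate 2) and a bar at the mean of each line. In the alpha window every line has 1 peak in replicate 1 and 8 to 11 in replicate 2.

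The number of regions differed between the clusters. Of genome tiles as long as the alpha window, 1.03% held at least 14 regions, and of tiles as long as the beta window 15.0% held at least 5. The tiles were not matched for gene content. No region lay in 8957 of the 18502 alpha-length tiles and in 7704 of the 16535 beta-length tiles. These shares thus do not show that RUNX1 sites are dense for a window with as many genes. At least 1 region called in all 6 libraries, as in the alpha window, was found in 13.1% of tiles. The alpha count depends on the window. It comprises 8 regions upstream of HBZ, 1 within the cluster and 5 beyond it, and 5 in all with 30 kb to each side. The beta count comprises 3 upstream of HBE1, 1 within the cluster and 1 beyond HBB, and was also 5 with 30 kb.

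Counted by gene, no listed globin gene had a region called in both replicates of any line inside it or within 10 kb, against 23.0% (4D), 25.6% (4A) and 29.2% (WT) of 20037 protein-coding genes. In the replicate 1 lists the count was also 0 of 8 in each line, against 23.8%, 26.7% and 29.9% of genes. In the replicate 2 lists it was 4 in 4D (HBZ, HBA2, HBA1 and HBE1), 5 in 4A and 5 in WT (HBZ, HBA2, HBA1, HBD and HBB in both), against 55.1%, 59.6% and 60.0%. These replicate 2 shares are near the background. Over all lists together 6 of the 8 were called, against 66.8%. The globin genes are short, with a median of 1.60 kb against 24.1 kb for all genes, and neighbours in a cluster share regions, so they do not count as independent genes.

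RUNX1 was also called at genes of a globin control list. The list was chosen with earlier results of these data known, so its shares are a description and no test of RUNX1 binding at such genes. Its 48 genes are mostly factors and partners that act on the globin clusters. AHSP, BPGM, EIF2AK1, RIOK3 and HBS1L are among those that are not such factors. Of these 48, 23 (47.9%) were called in both replicates of 4D, 22 (45.8%) in 4A and 24 (50%) in WT. The shares of all protein-coding genes were 23.0%, 25.6% and 29.2%. Their median gene length was 37.6 kb, against 24.1 kb for all protein-coding genes. In all 6 libraries 20 (41.7%) were called, against 17.1% of protein-coding genes. They include GATA1 and its cofactor ZFPM1, TAL1, LMO2, LYL1 and TCF3 of the complex that ties enhancers to globin promoters, NFE2 of the control region's NF-E2 sites, and its competitor BACH1. ZBTB7A, a silencer of the fetal genes, was also among them, as were NFIA, NFIX, MBD2, GATAD2A, KDM1A, RCOR1, PRMT5, NR2C2, NFE2L2, CTCF and RIOK3. The ZFPM1 region (chr16:88491168-88492120) had −log10 q of 58.9 and 212 in 4D, 33.4 and 191 in 4A, and 76.7 and 236 in WT. At NFE2 (chr12:54303722-54304867) it was 40.0 and 91.1 in 4D, 40.3 and 145 in 4A, and 68.5 and 123 in WT. In every list the −log10 q of these regions at ZFPM1 and NFE2 was above that of each region of the globin windows. The ZFPM1 region was picked for its high ranks. It had the highest mean percentile of the 4 regions called in all 6 lists, among 34 within 10 kb. NFE2 had 1 region called in all 6 lists, among 4. The values of these 2 genes thus do not stand for the other genes of the list. LYL1 and NFIX are neighbours and share a region.

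BCL11A, the main repressor of fetal globin, had no region within 10 kb in any list, and neither did HIC2, LIN28B, MAFK, RAD21, BPGM or AHSP, the chaperone of free alpha chains. KLF1, the activator of HBB, was called in the replicate 2 lists alone, with −log10 q of 16.7 in 4D, 18.3 in 4A and 17.1 in WT at a region 3.6 kb away. The sets of the lines differed by LDB1 and CHD4 (4D and WT), MTA2 (WT), ATF4 (4A and WT) and NR2F2 (4D and 4A). Each of these 5 genes was called in replicate 2 of every line and lacked a call only in replicate 1 lists.

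**Figure D4:**
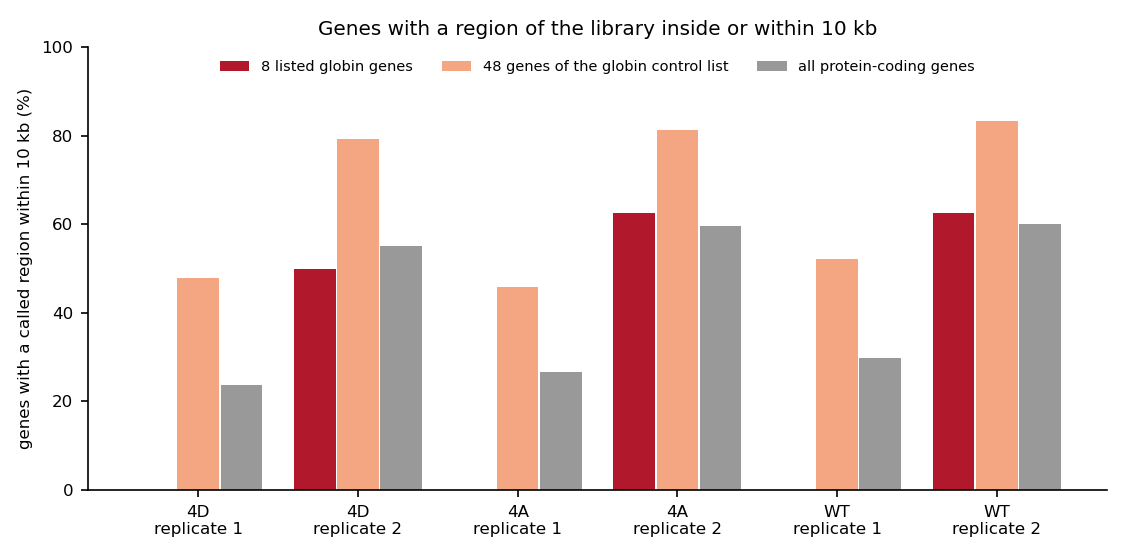
Percent of genes with a called region inside them or within 10 kb, per library, for the 8 listed globin genes, the 48 genes of the globin control list and all protein-coding genes. Globin genes have no bar in the replicate 1 lists and stand at 50 to 62.5% in the replicate 2 lists, beside 55.1 to 60.0% of all genes.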

How the data were processed

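CUT&RUN peaks were analysed in 6 libraries, 2 each of 4D, 4A and WT, grouped by their titles. Per the submitters' processing notes the upstream tools included MACS2 2.2.7.1, Bowtie2 2.4.2, cutadapt 3.4, deepTools 3.5.1 and Picard 2.25.6, with hg38 as the build, and per the series design the empty vector was the background. The authors deposited for each peak a score, a fold enrichment (a linear ratio), and −log10 of the p-value and q-value. The smallest −log10 q per list was 1.30 to 1.41. No source used here gives the read filters, and depth is unknown.

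Peaks were merged across lists by an overlap of at least 1 bp, leaving out mitochondrial DNA and unplaced contigs. Genes came from RefSeq (GRCh38.p14), whose gene table gives no strand. The direction of the globin genes is textbook knowledge. Every region of a window was named, with each protein-coding gene that it overlaps, but not every other gene of the windows. Of the globin control list, the genes called in all 6 libraries or in none were named. Those differing between lines, and KLF1, were chosen after their values were seen. The members and lists were chosen with earlier results of these data known. Peaks per window were compared by exact permutation over libraries. Alternatives were a stricter −log10 q, equal list lengths, other margins, overlaps and gene distances, a replicate block and leaving out replicates. Merging was tested on simulated lists. Python 3.11.15 and SciPy 1.17.1 were used.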

Additional observations from a re-analysis of the deposited data

How the results depend on the processing

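The counts are small and follow list length and margin. The 14 alpha regions became 2 with all lists at one length (HBZ and FAM234A) and 5 with 30 kb to each side. The 5 beta regions became 2 with a −log10 q of at least 5 and 1 with all lists at one length, the control region, then called in 3 lists. The alpha difference of 4D minus WT turned to −2 peaks with a −log10 q of at least 5 (exact permutation p = 0.667) and was 0 at one list length and with margins of 30 and 100 kb. That of 4D minus 4A was 0 with a −log10 q of at least 5 and 2.5 with 100 kb (exact permutation p = 0.667). That of 4A minus WT was −2 with a −log10 q of at least 5 and −2.5 with 100 kb (exact permutation p = 1 in both). The beta differences, 0 at first, became −1 (4D minus WT and 4A minus WT) with a −log10 q of at least 5, and −0.5, −1 and 0.5 (4D minus WT, 4A minus WT, 4D minus 4A) with 100 kb. The cause was not tested. Leaving out a replicate gave alpha differences of 0 to 1 (4D minus WT), −2 to 0 (4A minus WT) and 0 to 3 (4D minus 4A), and beta differences of 0 to 0, −1 to 1 and −1 to 1. With lines permuted within replicate numbers as a block, every exact p was 1, where this pairing cannot go below 0.50. In the alpha window no lower p was possible, because every line had 1 peak in replicate 1. At the beta cluster every difference of the means was 0. This block test therefore decides nothing about the lines. Listed globin genes called within 50 kb numbered 4 of 8 in 4D, 0 in 4A and 4 in WT, against 39.2%, 42.7% and 46.9% of protein-coding genes. The 4 genes share 1 region, that of the beta control region. The 0 in 4A rests on its missing call in 4A replicate 1, while 4A replicate 2 called it with −log10 q of 24.9. Without replicate 1 or 2, globin genes called ranged from 0 to 4 in 4D, 0 to 5 in 4A and 0 to 5 in WT, and those of the globin control list from 23 to 38, 22 to 39 and 25 to 40. The higher value of each came without replicate 1, whose lists are shorter. The shares of all protein-coding genes then were 55.1% (4D), 59.6% (4A) and 60.0% (WT). Without replicate 2 they were 23.8%, 26.7% and 29.9%. Genes of the globin control list called numbered 14 in 4D, 16 in 4A and 19 in WT with all lists at one length. At −log10 q of 5 or more they numbered 17, 17 and 23. The shares of all protein-coding genes were not counted at one list length or at this threshold. These counts therefore show nothing particular to the listed genes. Counting peaks by summit, chosen after seeing the data, left 13 alpha and 5 beta regions. Depth is unknown, so a missing call gives no limit on binding.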
